A study of Homo sapiens with 24 samples.

Results

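Antiviral interferon-stimulated genes were followed across 8 treatments of HepG2, a human cell line from a liver cancer. The set holds 49 genes of the 26475 gene symbols in the count files. They were chosen by name as classic effectors of the interferon response outside antigen presentation, with earlier results of these data known. All 49 symbols were present. RNA-seq was performed on 24 libraries, 3 per group. Of the groups without interferon gamma (IFNγ), 1 received DMSO only, 1 received 50 nM of ABBV-075, and the others received ABBV-744 at either 50 or 500 nM. The remaining groups received IFNγ, alone or together with the same doses of the same inhibitors. ABBV-075 is an inhibitor of all BET proteins, and ABBV-744 is a BET inhibitor selective for the second bromodomain. The DMSO libraries were the controls for the inhibitors and for IFNγ alone, and the IFNγ libraries were the controls for the combinations. The study's methods give 12 h of treatment for ABBV-075. The IFNγ dose and the times of the other treatments are not given in the sources used here. All groups share 1 cell line, and the labels do not say that the 3 libraries of a group came from separate cultures. The study's methods call its DMSO and ABBV-075 samples independent and experimental triplicates, and do not describe the IFNγ or ABBV-744 groups. The p-values measure the spread between these libraries, which may be technical. In such bulk libraries, fewer cells expressing a gene and less RNA per cell cannot be told apart.

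IFNγ binds its receptor and activates the kinases JAK1 and JAK2. The signal reaches GAS elements in the promoters of target genes, among them IRF1, and IRF1 and other interferon regulatory factors bind ISRE elements at many antiviral genes. The products of these genes sense viral RNA, degrade or edit it, block the translation of viral messages or stop viruses at membranes. BET proteins bind acetylated histones and help RNA polymerase to elongate, and inducible genes are known to be sensitive to their inhibition.

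The promoter windows of 39 of the 49 genes, from 250 bases before the start to 50 bases after it, were found in the RefSeq table (GRCh38.p14). Both strands were searched for the ISRE core, taken as 2 GAAA half-sites separated by any 2 bases, and for the GAS core TTCNNNGAA. The ISRE core was found in 22 of the 39 windows (56.4%), against 3.65% of 27305 promoters. The longer form of the ISRE core, with CT after the second half-site, was found in 14 (35.9%), against 0.271%. The GAS core was found in 9 (23.1%), against 7.88%. The motifs overlapped in IFITM1, BST2, IFI27 and EPSTI1, an arrangement found in 0.0513% of all promoters. The 4 windows shown are examples from genes that IFNγ or an inhibitor moved, and the capitals mark the motif letters: an overlapping GAS and ISRE core in EPSTI1 (chr13:42992192-42992491, minus strand), the same overlap beside a separate ISRE core in IFITM1 (chr11:313790-314089, plus strand), 2 ISRE cores near the start in RTP4 (chr3:187368135-187368434, plus strand), and 2 ISRE cores on the opposite strand in IFIT1 (chr10:89392373-89392672, plus strand).
EPSTI1: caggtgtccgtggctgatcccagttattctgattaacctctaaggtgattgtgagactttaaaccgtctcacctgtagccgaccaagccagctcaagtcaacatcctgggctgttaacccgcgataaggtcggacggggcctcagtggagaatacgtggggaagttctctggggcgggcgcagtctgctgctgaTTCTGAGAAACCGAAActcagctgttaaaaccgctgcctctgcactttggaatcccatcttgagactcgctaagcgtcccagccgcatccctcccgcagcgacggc
IFITM1: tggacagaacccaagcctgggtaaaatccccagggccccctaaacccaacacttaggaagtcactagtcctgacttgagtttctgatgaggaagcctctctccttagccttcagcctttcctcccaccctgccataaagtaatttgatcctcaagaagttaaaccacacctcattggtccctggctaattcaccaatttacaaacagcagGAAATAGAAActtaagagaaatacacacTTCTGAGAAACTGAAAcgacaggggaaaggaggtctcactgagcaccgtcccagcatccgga
RTP4: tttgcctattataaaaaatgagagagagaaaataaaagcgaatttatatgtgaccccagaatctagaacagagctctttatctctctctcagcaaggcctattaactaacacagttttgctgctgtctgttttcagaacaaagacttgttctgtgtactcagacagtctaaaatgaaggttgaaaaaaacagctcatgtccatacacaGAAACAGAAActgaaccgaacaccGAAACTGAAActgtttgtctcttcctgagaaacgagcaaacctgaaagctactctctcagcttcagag
IFIT1: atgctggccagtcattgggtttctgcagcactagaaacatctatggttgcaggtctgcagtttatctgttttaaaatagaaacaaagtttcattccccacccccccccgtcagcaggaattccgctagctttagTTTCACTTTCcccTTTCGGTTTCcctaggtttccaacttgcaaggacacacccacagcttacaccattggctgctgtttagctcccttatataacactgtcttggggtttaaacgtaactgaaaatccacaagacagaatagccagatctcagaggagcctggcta
These matches are descriptions of the letters only. Neither core was found in 15 windows, among them those of DDX58, HELZ2, SAMHD1, XAF1, CMPK2 and BATF2. Promoters of OAS2, OASL, IFIT2, IFITM2, MX2, PML, TRIM22, ETV7, TRAFD1 and TGM2 were not analysed here.

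The libraries held 2978982 to 4304103 counts on genes, of 23037861 to 28925049 reads. Between 56% and 69.4% of the reads mapped to several places and were not counted, so levels of genes with near-identical copies, such as the IFITM family at chr11:303655-329475 (GRCh38, GENCODE v44), are uncertain. ABBV-075 replicate 3 stood apart from its group, with a chi-square per gene of 16.6 against replicate 1 and 8.37 against replicate 2, where the other replicate pairs of all groups gave 1.66 to 6.73. No 2 libraries of a group agreed within sampling noise. HEXIM1, a gene known to rise under BET inhibition, averaged 53.8 CPM (counts scaled to the size of the library) with DMSO, 145 with ABBV-075, 65.1 and 89.5 with ABBV-744 at 50 and 500 nM, 47.3 with IFNγ, 135 with IFNγ and ABBV-075, and 49.5 and 71.5 with IFNγ and the lower and higher dose of ABBV-744. All 8 hepatocyte markers were detected. Of 16 markers of leukocytes, fibroblasts and endothelium, 9 had at most 3 counts in every library, 7 of them (CD3E, CD2, MS4A1, PTPRC, CSF1R, COL1A2 and DCN) at 0 throughout. LYZ, the lysozyme gene, reached 7873 counts, the macrophage marker CD68 86 and the monocyte marker CD14 22, while CD3D, PECAM1 and VWF reached 6, 5 and 4. All 8 type I and type III interferon genes listed were at 0 counts in every library.

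**Figure D1:**
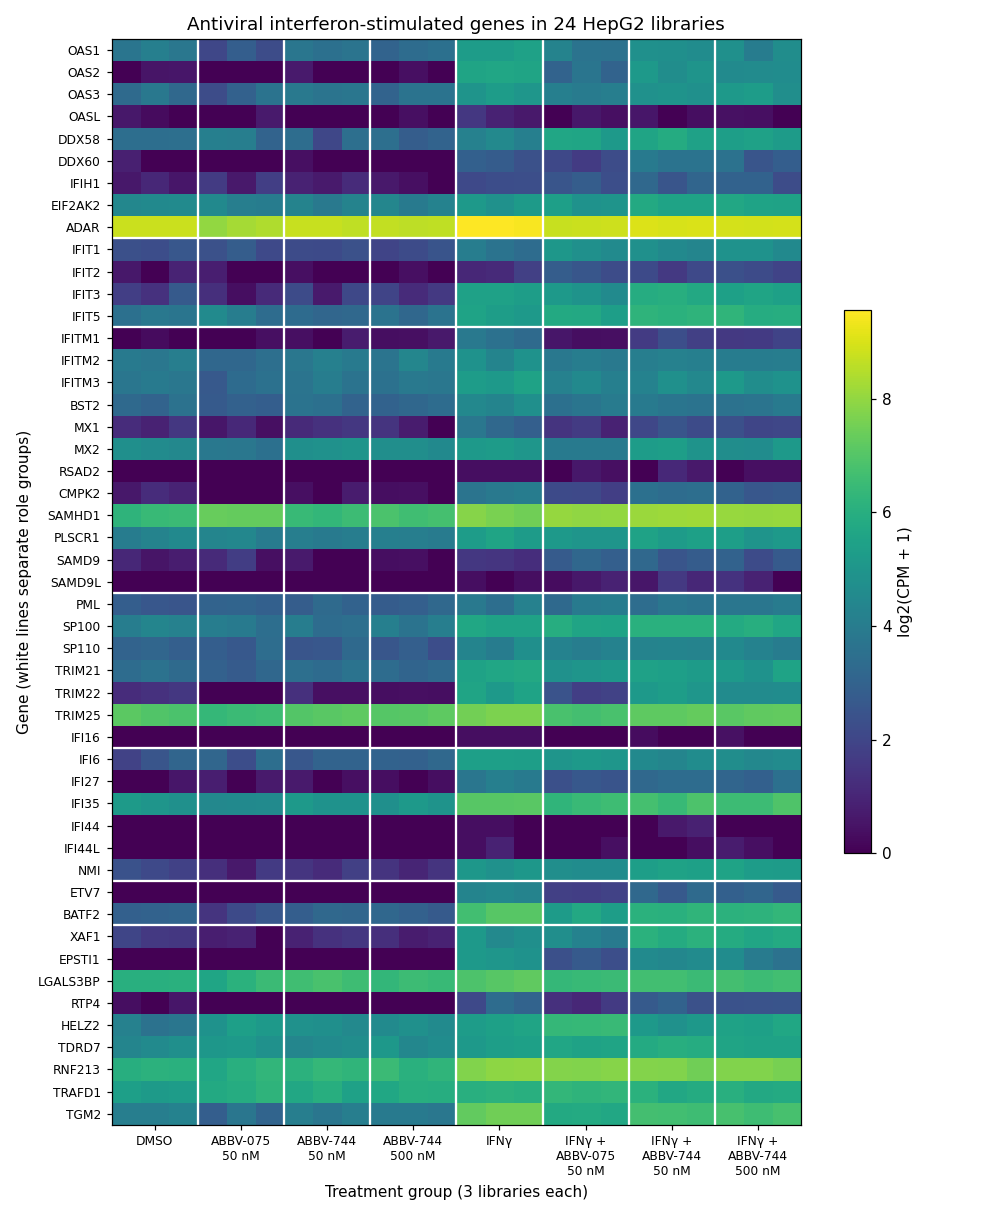
Levels of the 49 antiviral genes (rows, grouped by role) in the 24 libraries (columns, 3 per treatment group), as colours of log2(CPM + 1). The 3 IFNγ columns are brighter than the DMSO columns over most rows, while OASL, RSAD2, SAMD9L, IFI16, IFI44 and IFI44L stay dark in all groups.

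IFNγ raised the antiviral genes that had enough counts to be tested. Of the 49 genes, 41 were tested against DMSO, and 41 rose and 0 fell (edgeR quasi-likelihood test, Benjamini-Hochberg adjusted p of at most 0.05), where 2.76% of the 11217 genes tested were called higher and 0.695% lower. The other 8 genes had too few counts. Of those tested, 7 were at or under 3 counts in every DMSO library and passed the low-count filter through the IFNγ libraries alone. Further genes with slightly more DMSO counts, such as TRIM22, passed it in the same way, and how many did so was not counted. All such genes could be called only as rises. No antiviral gene was lower at an unadjusted p under 0.05, and DESeq2 called 38 higher and 0 lower. The median log2 fold change was 1.71, both as fitted and with those 7 genes set to their lower bound, and the median of all genes was 0. A total of 26 passed the log2 threshold of 1.5, where 0.82% of all genes did. In all 41 the 3 IFNγ libraries lay above the 3 DMSO libraries, a separation seen in 9.94% of the genes tested. The summed level of all 49 genes was close to 1120 CPM in each DMSO library and 2830 to 2920 CPM in the IFNγ libraries.

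Among the RNA sensors and RNA-directed enzymes, 8 of 9 were tested and 8 rose. OAS2, a synthetase whose product activates RNase L, had 0, 0.444 and 0.477 CPM with DMSO and 46.7, 49.6 and 47 CPM with IFNγ. It was at least 65.5-fold higher (adjusted p = 4.78e-21, edgeR), the bound being set by 3 counts in each DMSO library. Its neighbours OAS1 and OAS3 on chromosome 12 (chr12:112905856-113011723 for the 3 genes, GENCODE v44) started from higher levels and rose by 1.51 and 1.68 on the log2 scale. DDX60, a helicase that supports RNA sensing, had 0.804, 0 and 0 CPM with DMSO and 6.55, 5.9 and 4.2 CPM with IFNγ, at least 7.62-fold higher (adjusted p = 1.59e-06, edgeR). The RNA sensors IFIH1 (MDA5) and DDX58 (RIG-I) rose by 2.29 and 0.87. EIF2AK2, the kinase PKR, and ADAR, which edits double-stranded RNA, rose by 0.56 and 0.73. The call of EIF2AK2 was lost without DMSO replicate 1 or 3 or IFNγ replicate 3 (0.49 to 0.59, adjusted p = 0.0532 to 0.103, edgeR).

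The IFIT genes encode proteins that bind viral RNA and hold back its translation, and they lie together on chromosome 10. IFIT3 rose from 2.41, 1.55 and 5.49 CPM to 43.1, 43.1 and 38.6 CPM, a log2 fold change of 3.71 (SE 0.23, adjusted p = 4.99e-16, edgeR). IFIT5 and IFIT1 rose by 1.71 and 1.51. IFIT2 had 4, 4 and 9 counts with IFNγ and was not tested against DMSO.

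Among the genes acting on viral entry and replication, 9 of 12 were tested and 9 rose. IFITM1, a membrane protein that blocks fusion, had 0, 0.222 and 0 CPM with DMSO and 13.6, 10.9 and 8.95 CPM with IFNγ, at least 15.3-fold higher (adjusted p = 1.12e-11, edgeR). CMPK2, a mitochondrial nucleotide kinase, rose by 3.76 and the dynamin-like GTPase MX1 by 2.72. IFITM3, BST2 (tetherin), SAMHD1, which depletes the dNTPs needed for reverse transcription, and PLSCR1 rose by 1.56, 1.29, 1.26 and 1.12. MX2 rose by 0.56, a call that was lost without DMSO replicate 2 or 3 or IFNγ replicate 2 (0.49 to 0.56, adjusted p = 0.0501 to 0.123, edgeR). RSAD2 (viperin), a strongly interferon-inducible radical SAM enzyme, had at most 0.295 CPM with IFNγ.

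Of the nuclear body and TRIM genes, 6 of 7 were tested and 6 rose. TRIM22, a ubiquitin ligase that restricts several viruses, rose from 1.34, 1.55 and 1.91 CPM to 46.7, 34.8 and 45 CPM, by 4.68 on the log2 scale (SE 0.24, adjusted p = 1.3e-18, edgeR). The cytosolic antibody receptor TRIM21 rose by 2.31. SP110, SP100 and PML, components of nuclear bodies, rose by 1.47, 1.41 and 1.36. TRIM25, the ubiquitin ligase that activates RIG-I, rose by 0.64.

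The IFI genes and NMI gave 4 rises among 4 genes tested. IFI27, a mitochondrial protein, had 0, 0 and 0.477 CPM with DMSO and 12.6, 16.5 and 14.3 CPM with IFNγ, at least 19.8-fold higher (adjusted p = 7.61e-13, edgeR). NMI, IFI6 and IFI35 rose by 3.16, 3.0 and 2.11. IFI44 and IFI44L stayed at or under 0.886 CPM.

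Both transcription factors rose. ETV7, an ETS family repressor, was at 0 CPM in all 3 DMSO libraries and at 18.6, 20.4 and 18.2 CPM with IFNγ, at least 26.1-fold higher (adjusted p = 2.93e-15, edgeR). BATF2 rose from 6.7, 7.1 and 7.39 CPM to 101, 133 and 135 CPM, by 4.11 (SE 0.15, adjusted p = 2.34e-23, edgeR).

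The remaining genes, 9 of 9 tested, all rose. EPSTI1 was at 0 CPM in all 3 DMSO libraries and at 33.6, 31.3 and 28 CPM with IFNγ, at least 42.5-fold higher (adjusted p = 4.43e-18, edgeR). RTP4, which inhibits flavivirus replication, was at 0.268, 0 and 0.477 CPM and reached 3.27, 9.45 and 7.27 CPM, at least 9.15-fold higher (adjusted p = 3.63e-07, edgeR). XAF1, a pro-apoptotic protein, rose by 3.59 and the transglutaminase TGM2 by 3.34. RNF213 and HELZ2 rose by 1.82 and 1.65, and the glycoprotein LGALS3BP, TRAFD1 and TDRD7 by 1.04, 0.78 and 0.75.

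Levels between genes were compared per kilobase of transcript. With IFNγ the highest were IFI35 at 113 CPM per kilobase and ADAR at 111, followed by IFITM3 at 63.5, LGALS3BP at 61.0 and BATF2 at 59.6. ETV7, OAS2 and EPSTI1, which were at or near 0 with DMSO, stood at 11.9, 10.3 and 9.96 CPM per kilobase. The lowest were IFI44L at 0.0662 and SAMD9L at 0.0258 CPM per kilobase.

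When an inhibitor was added to IFNγ, the log2 fold changes against IFNγ followed the GC content of the transcript over all genes. The antiviral genes followed it as well. Spearman's rho of the change with GC content was -0.39 over 11023 genes and -0.39 over 43 antiviral genes for IFNγ with ABBV-075 against IFNγ. It was -0.69 over 10982 genes and -0.76 over 42 for IFNγ with 50 nM ABBV-744, and -0.55 and -0.57 for 500 nM. With IFNγ alone against DMSO it was 0.32 over all genes and 0.09 over 41 antiviral genes. For ABBV-075 against DMSO the values were -0.35 and -0.09. For ABBV-744 against DMSO the sign was the opposite of that with IFNγ, at 0.6 and 0.75 for 50 nM and 0.36 and 0.58 for 500 nM. For IFNγ within ABBV-075 they were -0.01 and -0.21, and within ABBV-744 -0.77 and -0.38 at 50 nM and -0.64 and -0.33 at 500 nM. Genes of the lowest quartile of GC content had a median log2 fold change of 0.74 under 50 nM ABBV-744 with IFNγ, and those of the highest quartile -0.33. These are correlations across genes of the same libraries, and their source was not tested. Counts of calls for the antiviral genes are therefore given below also from a fit in which each library's GC trend was removed, an alternative added after the data were seen, and so are the corrected values of many of the genes named. With that correction 41 of 41 genes still rose with IFNγ, where 3.4% of all genes did.

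**Figure D2:**
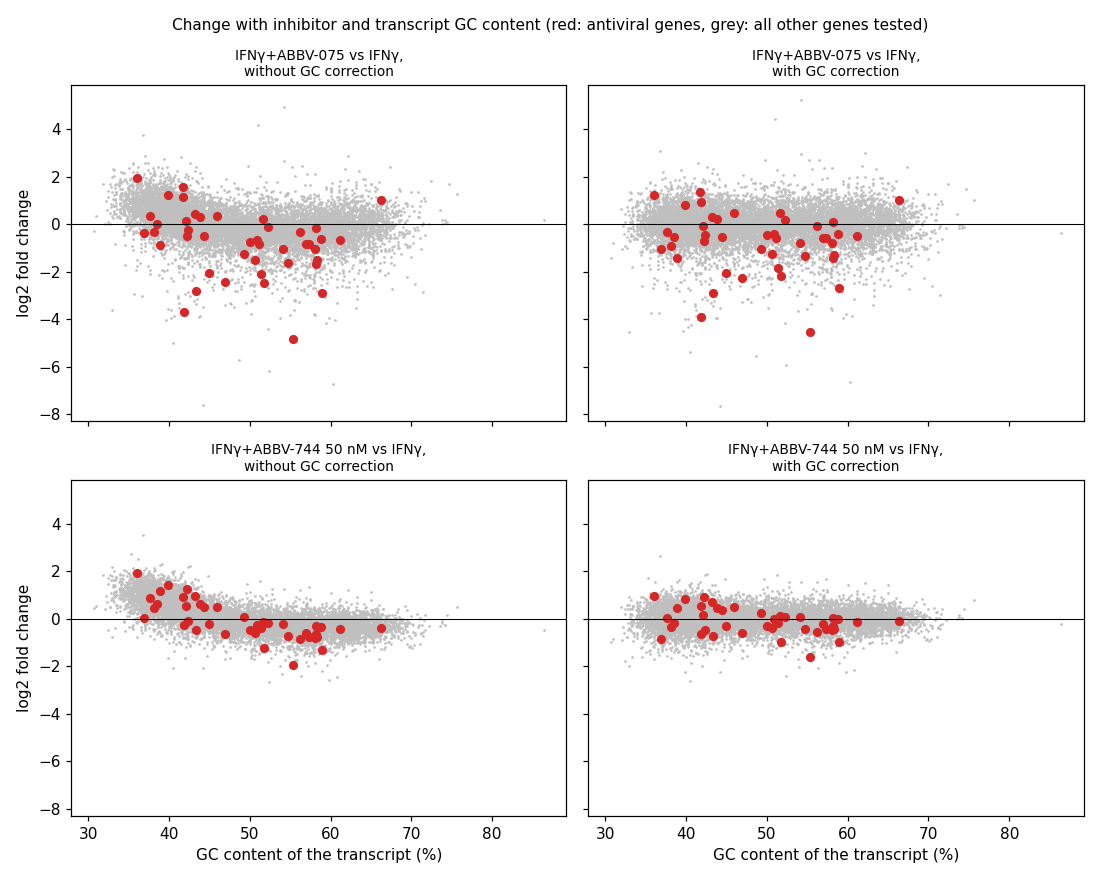
Log2 fold change (vertical axis) against the GC content of the transcript in percent (horizontal axis) for all genes tested (grey) and the antiviral genes (red), without and with the GC correction. With IFNγ and 50 nM ABBV-744 the uncorrected points slope down (rho -0.69 over all genes), and the slope is removed by the correction.

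ABBV-075 lowered most antiviral genes in the presence of IFNγ and raised a few. Compared with IFNγ alone, 27 of 43 genes tested fell and 6 rose, where 28.4% of the 11187 genes tested were called lower and 28.2% higher. The share that rose was thus below that of all genes. The median log2 fold change was -0.67, against 0 over all genes. Past a log2 change of 1.5 there were 12 lower and 2 higher, where 3.75% and 2.41% of all genes were. The 2 higher were SAMD9 and IFIT2, which passed the low-count filter through the combination libraries alone. They could therefore be called only as rises. In the same way IFITM1, MX1 and ETV7 passed it through the IFNγ libraries alone and could be called only as falls. TRIM22 passed it mainly through the IFNγ libraries, and other genes low with the combination may have done so as well. The summed level of the 49 genes was 2030 to 2060 CPM, below the 2830 to 2920 CPM of the IFNγ libraries. The 3 markers of other cell types that were tested fell as well, CD14 by 2.3, CD68 by 1.11 and LYZ by 0.54, and the summed level of the 16 markers was 1100 to 1350 CPM against 1630 to 1860 CPM with IFNγ, or 10.1 to 14.2 CPM against 26.9 to 29.8 CPM without LYZ. Their part in the result was not tested. In the corrected fit 30 fell and 8 rose, where 29% and 26.5% of all genes did, and 26 falls and 6 rises were called in both fits. IFI6 was lost (-0.07), EIF2AK2 (-0.55), IFIT5 (-0.32), NMI (-0.92) and SP110 (-0.44) were called lower, and RNF213 (0.18) and TRAFD1 (0.48) were called higher.

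The 5 lowest values were those of IFITM1, TRIM22, ETV7, EPSTI1 and MX1. IFITM1 had 0.497, 0.272 and 0.301 CPM with the combination, within 3 counts in each library, at least 13.6-fold lower than the 13.6, 10.9 and 8.95 CPM with IFNγ (adjusted p = 1.43e-11, edgeR). TRIM22 had 4.47, 2.45 and 2.71 CPM against 46.7, 34.8 and 45 CPM, and fell by 3.69 on the log2 scale (SE 0.23, adjusted p = 2.27e-16, edgeR). All libraries of the combination lay below the IFNγ libraries in both genes. ETV7 had 2.49, 2.45 and 2.71 CPM against 18.6, 20.4 and 18.2 CPM, and fell by 2.89 (SE 0.26, adjusted p = 7.56e-12, edgeR). EPSTI1 had 3.98, 5.44 and 3.92 CPM against 33.6, 31.3 and 28 CPM, and fell by 2.8 (SE 0.22, adjusted p = 1.49e-13, edgeR). MX1 had 1.74, 2.18 and 0.904 CPM against 12.8, 8.27 and 6.43 CPM, and fell by 2.48 (SE 0.37, adjusted p = 4.07e-07, edgeR). The groups did not overlap in any of these genes, where 30.6% of all genes tested lay lower without overlap. The corrected log2 fold changes were -3.92 for TRIM22, -2.68 for ETV7, -2.89 for EPSTI1 and -2.2 for MX1.

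Among the sensors, 5 of 8 fell and 1 rose. OAS2 fell by 2.43, OAS1 by 1.53 and OAS3 by 1.07, and ADAR fell by 0.74. With the correction ADAR fell by 0.48. DDX60 fell by 0.89, a call that was lost without IFNγ replicate 1 or 2 or combination replicate 2 (-0.85 to -0.71, adjusted p = 0.0614 to 0.121, edgeR), and by 1.42 with the correction. DDX58 went the other way. Its levels were 17.5, 21.5 and 16.5 CPM with IFNγ and 48.7, 48.1 and 34.1 CPM with ABBV-075 added, a rise of 1.24 (SE 0.16, adjusted p = 3.73e-08, edgeR). The GC-corrected value of DDX58 was 0.81 (adjusted p = 2.43e-06, edgeR). IFIH1 did not pass, at 0.41 (95% interval -0.26 to 1.07).

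The IFIT family was split. IFIT1 had 15.6, 11.5 and 9.51 CPM with IFNγ and 32.3, 26.7 and 22.9 CPM with the combination, a rise of 1.16 (SE 0.2, adjusted p = 3.98e-06, edgeR). IFIT2 had 4, 4 and 9 counts with IFNγ and 24, 18 and 12 with the combination, a rise of 1.58 (SE 0.41, adjusted p = 0.0011, edgeR). IFIT3 fell by 0.52. IFIT5 did not pass, at 0.32 (95% interval 0.03 to 0.6, adjusted p = 0.0522, edgeR), while the corrected fit called it lower at -0.32. The corrected values of IFIT1 and IFIT2 were 0.92 and 1.33, both still called.

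Of the entry and replication genes, 8 of 10 tested fell. CMPK2 fell by 2.12, MX2 by 1.28, IFITM3 by 1.05, IFITM2 by 0.84 and BST2 by 0.83. PLSCR1 fell by 0.36, and by 1.04 with the GC correction. Without IFNγ replicate 2 or combination replicate 2 or 3 its uncorrected value did not pass (-0.35 to -0.25, adjusted p = 0.0694 to 0.206, edgeR). The exceptions were SAMD9, an antiviral factor against poxviruses, and SAMHD1. SAMD9 rose from 7, 6 and 5 counts to 23, 30 and 21 counts, by 1.96 (SE 0.36, adjusted p = 1.82e-05, edgeR), and by 1.22 with the GC correction. SAMHD1 had 223, 199 and 179 CPM with IFNγ and 265, 249 and 255 CPM with the combination, a rise of 0.35 (SE 0.09, adjusted p = 0.00162, edgeR).

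In the other groups, TRIM25 fell by 0.86 and TRIM21 by 0.69 (0.42 with the correction), while SP100, SP110 and PML did not pass at 0.14, -0.24 and -0.15. IFI27 fell by 1.67 and IFI35 by 0.65, with corrected values of -1.43 and -0.43, and IFI6 fell by 0.35 without the correction only. The uncorrected call of IFI6 was also lost without IFNγ replicate 1 or 2 or combination replicate 1 or 3 (-0.34 to -0.29, adjusted p = 0.058 to 0.0846, edgeR). BATF2 had 36.5, 53 and 38.6 CPM against 101, 133 and 135 CPM and fell by 1.53. TGM2 fell by 1.64, RTP4 by 2.08 and LGALS3BP by 0.67. XAF1 fell by 0.5, but its libraries overlapped, and the call was lost without IFNγ replicate 1 or combination replicate 2 or 3 (-0.45 to -0.31, adjusted p = 0.0686 to 0.201, edgeR). HELZ2, a nuclear helicase that acts as a transcriptional coactivator, had 37.4, 42.5 and 46.4 CPM with IFNγ and 82, 82.9 and 88.6 CPM with the combination. It rose by 1.0 (SE 0.12, adjusted p = 6.45e-09, edgeR), and by 1.02 with the GC correction.

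**Figure D3:**
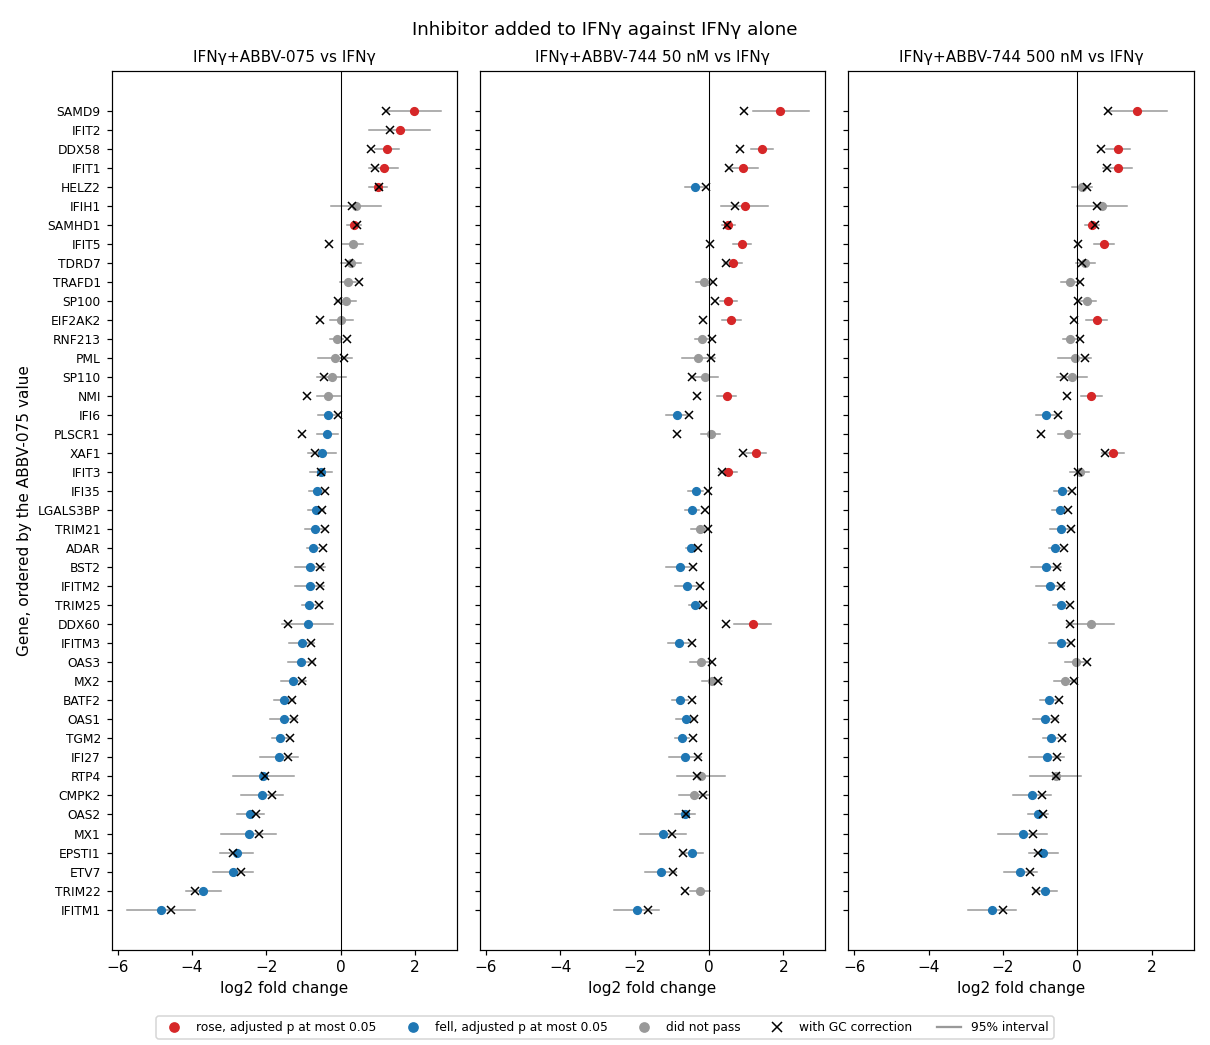
Log2 fold change (horizontal axis) of each antiviral gene tested (vertical axis) for each inhibitor added to IFNγ against IFNγ alone, with its 95% interval; crosses are the GC-corrected values. IFITM1, TRIM22, ETV7 and EPSTI1 lie furthest to the left with ABBV-075, and DDX58 and IFIT1 lie to the right of 0 in all 3 panels; the fitted value of IFITM1 with ABBV-075 depends on the prior count.

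With 50 nM ABBV-744 on top of IFNγ, 18 of 42 antiviral genes tested fell and 13 rose, where 24.3% of the 11150 genes tested were called lower and 27.4% higher, so the share that rose was near that of all genes. The median log2 fold change was -0.25, against -0.02 over all genes. The GC-corrected fit gave 16 falls and 6 rises, where 17.5% and 15.4% of all genes were called, again with the share of rises near that of all genes, and 12 falls and 6 rises were called in both fits. Besides DDX60, IFIH1 and SAMD9, described below, EIF2AK2 (0.6 to -0.16), IFIT5 (0.88 to 0.03), NMI (0.47 to -0.33) and SP100 (0.52 to 0.15) were no longer called higher. HELZ2 (-0.38 to -0.08), IFI27 (-0.65 to -0.31), IFI35 (-0.36 to -0.02), IFITM2 (-0.58 to -0.24), LGALS3BP (-0.45 to -0.12) and TRIM25 (-0.39 to -0.15) were no longer called lower. NMI and PLSCR1 (0.04 to -0.86) were then called lower together with SP110 and TRIM22. Of the markers of other cell types, CD14 and CD68 fell by 2.47 and 1.27, LYZ did not pass (0.12), and the summed level without LYZ was 10.8 to 12.8 CPM, and their part in the result was not tested.

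The largest fall at this dose was again in IFITM1, which had 2.17, 3.96 and 2.49 CPM and fell by 1.95 (SE 0.3, adjusted p = 1.59e-06, edgeR). IFITM1 passed the low-count filter mainly through the IFNγ libraries, as the combination libraries alone would not have passed it. ETV7 had 8.44, 5.37 and 8.84 CPM and fell by 1.3 (SE 0.21, adjusted p = 3.18e-06, edgeR). MX1 had 3.13, 4.8 and 3.59 CPM and fell by 1.25 (SE 0.3, adjusted p = 0.000853, edgeR). All libraries of these genes lay below those with IFNγ alone, where 28.9% of all genes tested did, and the corrected log2 fold changes were -1.63, -0.97 and -1.0. IFI6 had 22.4, 19.2 and 24 CPM against 41.2, 41 and 39.7 CPM, and fell by 0.87. IFITM3 fell by 0.81, BATF2 by 0.79, BST2 by 0.78, TGM2 by 0.74, OAS2 by 0.66, OAS1 by 0.62 and ADAR by 0.49. EPSTI1 fell by 0.46, from 33.6, 31.3 and 28 CPM to 22.7, 20.6 and 23.2 CPM. The corrected values were -0.54 for IFI6, -0.47 for IFITM3, -0.45 for BATF2, -0.44 for BST2, -0.42 for TGM2, -0.4 for OAS1 and -0.29 for ADAR, while that of EPSTI1 was -0.71.

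Among the genes that rose, XAF1 had 34.1, 21.8 and 26.3 CPM with IFNγ and 67.7, 57.6 and 70.2 CPM with 50 nM ABBV-744 added, a rise of 1.26 (SE 0.14, adjusted p = 1.88e-09, edgeR). DDX58 had 47.3, 57.4 and 42.8 CPM, a rise of 1.43 (SE 0.15, adjusted p = 8.89e-10, edgeR). The corrected log2 fold changes of XAF1 and DDX58 were 0.91 and 0.82, both still called. IFIT1, TDRD7, IFIT3 and SAMHD1 rose by 0.92, 0.64, 0.51 and 0.51, and by 0.53, 0.45, 0.35 and 0.49 with the correction. SAMD9 again passed the low-count filter through the combination libraries alone. It had 35, 17 and 21 counts against 7, 6 and 5, a rise of 1.92 (SE 0.37, adjusted p = 5.6e-05, edgeR). DDX60 had 14, 11.3 and 11.6 CPM against 6.55, 5.9 and 4.2 CPM, a rise of 1.17. IFIH1 had 8.44, 4.8 and 7.74 CPM against 3.27, 3.84 and 3.92 CPM, a rise of 0.96. These last 3 genes were not called with the correction, at 0.95, 0.45 and 0.7 (adjusted p = 0.0507, 0.145 and 0.077, edgeR). Leaving out single libraries also ended the uncorrected calls of HELZ2 (without IFNγ replicate 3 or combination replicate 2, -0.32 and -0.31), IFI27 (without IFNγ replicate 2, -0.54) and IFIH1 (without combination replicate 1, 0.77).

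With ABBV-744 at 500 nM, 20 of 42 genes tested fell and 8 rose, where 22.8% of the 11091 genes tested were called lower and 22.9% higher. The share that rose was not above that of all genes, and the median was -0.37 against -0.03 over all genes. Corrected for GC content, 17 fell and 4 rose, against 19% and 17.1% of all genes, and 16 and 4 were called in both fits. Of the markers of other cell types, CD68 fell by 1.18 and LYZ did not pass (-0.13), and the summed level without LYZ was 10.1 to 14.7 CPM. IFITM1 had 2, 2.08 and 2.77 CPM and fell by 2.29 (SE 0.32, adjusted p = 6.38e-07, edgeR). It passed the low-count filter through the IFNγ libraries alone and could be called only as a fall. ETV7 had 6.66, 7.71 and 5.54 CPM and fell by 1.53 (SE 0.22, adjusted p = 1.1e-06, edgeR). MX1 had 4, 2.97 and 3.08 CPM and fell by 1.47 (SE 0.32, adjusted p = 0.000369, edgeR). None of these 9 values reached an IFNγ library of the same gene, and 26.3% of all genes tested lay lower without overlap. CMPK2 had 6.99, 5.04 and 5.54 CPM against 11.7, 13.6 and 15.1 CPM and fell by 1.22. OAS2 had 22.6, 23.1 and 23.7 CPM and fell by 1.06, with all libraries below those of IFNγ. TRIM22, at 23.3, 23.1 and 24 CPM, fell by 0.86, and EPSTI1, at 24.3, 14.8 and 11.1 CPM, by 0.92. IFI6, BATF2, TGM2 and ADAR fell by 0.83, 0.77, 0.72 and 0.6, and their corrected values were -0.53, -0.49, -0.42 and -0.36.

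The genes that rose at 500 nM included SAMD9 (1.61), DDX58 (1.1), IFIT1 (1.08), XAF1 (0.97) and IFIT5 (0.71). The levels were 40, 43 and 36.9 CPM for DDX58, 28, 28.5 and 22.1 CPM for IFIT1, 57.9, 49.8 and 55.7 CPM for XAF1 and 75.2, 59 and 61.2 CPM for IFIT5. SAMD9, which passed the low-count filter through the combination libraries alone, had 21, 12 and 18 counts, against 7, 6 and 5 with IFNγ. All of these values were above the IFNγ libraries, where 25.9% of all genes tested lay higher without overlap. After the correction DDX58, IFIT1, XAF1 and SAMHD1 were still called at 0.63, 0.81, 0.74 and 0.47, while SAMD9, IFIT5, EIF2AK2 and NMI were not, at 0.82, 0.03, -0.09 and -0.27. Leaving out single libraries ended the calls of IFITM3 (without IFNγ replicate 3 or combination replicate 2, -0.36 and -0.34), TRIM21 (without the same libraries, -0.37 and -0.28) and NMI (without IFNγ replicate 2 or combination replicate 1 or 2, 0.29 to 0.41). The comparisons of the 3 combinations share the IFNγ libraries.

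**Figure D4:**
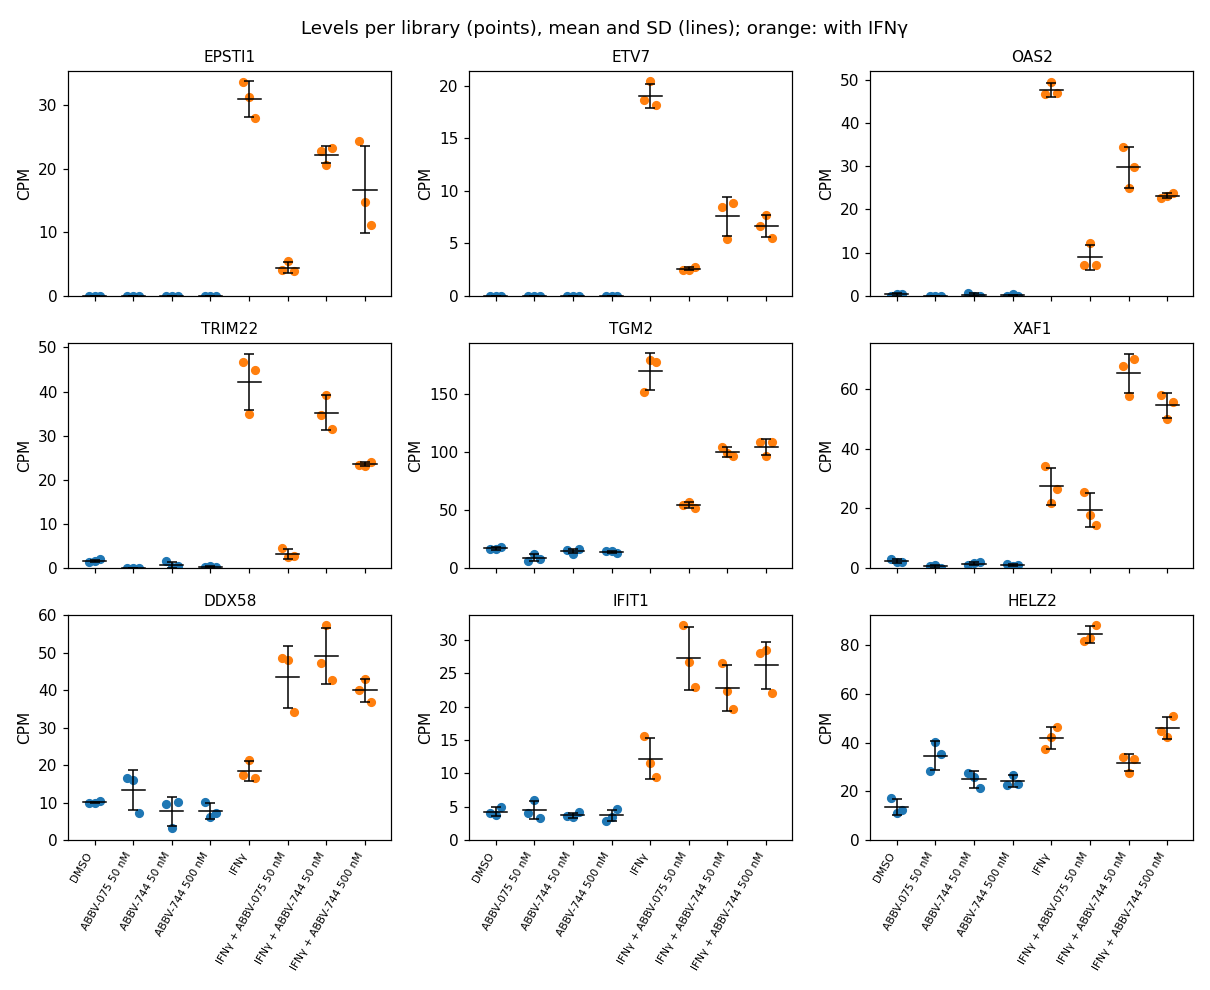
Levels in CPM (vertical axis) of 9 antiviral genes in each library (points) of the 8 treatment groups (horizontal axis), with the mean and SD of 3 libraries. EPSTI1, ETV7, OAS2 and TRIM22 are lowest with ABBV-075 among the groups with IFNγ, XAF1 is highest with 50 nM ABBV-744, and HELZ2 is highest with IFNγ and ABBV-075.

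Without IFNγ, 28 of the 49 antiviral genes had enough counts to be tested with ABBV-075 or 50 nM ABBV-744, and 27 with 500 nM. With ABBV-075 against DMSO, 9 of 28 genes tested fell and 3 rose, where 19.6% of the 11244 genes tested were called lower and 19.8% higher. The share that rose was again below that of all genes. OAS1 had 3.14, 6.32 and 3.61 CPM against 12.1, 16.4 and 12.9 CPM, and fell by 1.7 (SE 0.28, adjusted p = 0.000658, edgeR). NMI had 1.45, 0.574 and 2.1 CPM against 4.29, 3.33 and 2.62 CPM and fell by 1.31. It passed the low-count filter through the DMSO libraries alone and could be called only as a fall. BATF2 fell by 1.11 to 1.69, 3.45 and 5.11 CPM, TGM2 by 0.97 to 6.27, 12.3 and 7.52 CPM, and MX2 by 0.95 to 13, 12.9 and 10.5 CPM. The groups did not overlap in these genes, where 25.2% of all genes tested lay lower without overlap. The genes that rose were HELZ2, SAMHD1 and TRAFD1. HELZ2 had 28.5, 40.5 and 35.2 CPM against 17.2, 11.1 and 12.4 CPM, a rise of 1.34 (SE 0.2, adjusted p = 0.000403, edgeR). SAMHD1 had 159, 154 and 155 CPM against 74, 85 and 90.9 CPM, a rise of 0.88 (SE 0.12, adjusted p = 0.000176, edgeR). TRAFD1 rose by 0.68, to 54.8, 58.9 and 73.7 CPM from 41, 36.2 and 37.7 CPM. In the corrected fit 12 fell and 4 rose, including all 9 and all 3, where 24% and 21.9% of all genes did. Without ABBV-075 replicate 3, 12 fell and 6 rose, where 25.9% and 26.4% of all genes did, and without DMSO replicate 1 or ABBV-075 replicate 2, 8 were called. The call of BATF2 was lost without any 1 of the libraries other than ABBV-075 replicate 3 (-1.14 to -0.74), and that of NMI without DMSO replicate 1 or 2 or ABBV-075 replicate 1 or 2 (-1.35 to -0.96).

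With 50 nM ABBV-744 against DMSO, 3 of 28 genes rose and 0 fell, where 8.81% and 10.1% of the 11116 genes tested did. The share that rose was thus near that of all genes. At an unadjusted p under 0.05, 3 were lower, and DESeq2 called 0 lower of the 18 genes for which it gave an adjusted p. With 500 nM, 4 of 27 rose and 0 fell, where 7.48% and 7.8% of the 11124 genes tested did. Here 1 was lower at an unadjusted p under 0.05, and DESeq2 called 0 lower. HELZ2 had 27.7, 25.8 and 21.3 CPM at 50 nM and 22.7, 26.9 and 23 CPM at 500 nM, and rose by 0.91 and 0.85. LGALS3BP had 97.5, 110 and 94 CPM at 50 nM and 78.5, 91.6 and 86 CPM at 500 nM, against 63.8, 64.8 and 66.5 CPM with DMSO, and rose by 0.64 and 0.4 (0.41 and 0.26 with the GC correction). TRAFD1 had 51.3, 63.2 and 43.2 CPM and 50.6, 61.8 and 61.5 CPM, and rose by 0.47 and 0.61. SAMHD1 rose by 0.35 at 500 nM, to 113, 98.7 and 106 CPM. All of these were still called with the GC correction, where 5.36% of all genes were higher and 5.36% lower at 50 nM and 8.62% and 9.85% at 500 nM. The correction also called OAS1 and ADAR lower at 500 nM, at -0.69 and -0.2. Single libraries left out ended the uncorrected calls of TRAFD1 at 50 nM (without DMSO replicate 2 or 3 or ABBV-744 replicate 2, 0.32 to 0.46), and at 500 nM those of LGALS3BP (without DMSO replicate 2 or ABBV-744 replicate 3, 0.4 and 0.39) and SAMHD1 (without DMSO replicate 1 or 2 or ABBV-744 replicate 1 or 3, 0.27 to 0.37).

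IFNγ was also compared with no IFNγ in cells that received the same inhibitor. At most 3 counts in every library without IFNγ were found in 5 of the genes tested with ABBV-075, in 8 with 50 nM and in 10 with 500 nM ABBV-744. These passed the low-count filter through the IFNγ libraries alone. Further genes with slightly more counts did so too, such as NMI and IFIT3 with ABBV-075, and their number was not counted. All such genes could be called only as rises. With ABBV-075, 23 of 36 genes tested rose and 0 fell, where 1.01% of the 10951 genes tested were called higher and 0.0365% lower. At an unadjusted p under 0.05, 33 were higher and 0 lower, and DESeq2 called 30 higher and 0 lower. The median log2 fold change was 1.66, and 19 passed the 1.5 threshold, where 0.594% of all genes did. OAS2 went from 0 CPM in all 3 libraries to 7.21, 12.2 and 7.23 CPM, at least 10.7-fold higher (adjusted p = 0.00022, edgeR). EPSTI1 went from 0 CPM to 3.98, 5.44 and 3.92 CPM, at least 5.36-fold higher (adjusted p = 8e-04, edgeR). XAF1 went from 0.724, 0.861 and 0 CPM to 25.6, 17.9 and 14.5 CPM, at least 23.3-fold higher (adjusted p = 1.89e-05, edgeR). IFIT3 rose by 4.83, from 1.45, 0.287 and 1.2 CPM to 34.8, 28.8 and 22.9 CPM. NMI rose by 4.16, from 1.45, 0.574 and 2.1 CPM to 25.4, 24.2 and 24.1 CPM. The 13 genes that did not pass included MX2 (0.25), TRIM25 (0.33), LGALS3BP (0.34) and ADAR (0.57). Without ABBV-075 replicate 3, which stood apart, 32 rose, where 1.92% of all genes did. The GC-corrected fit gave 30 rises, where 1.87% of all genes rose.

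With 50 nM ABBV-744, IFNγ raised 35 of 41 genes, where 30.4% of the 11088 genes tested were called higher, and the median was 1.78. With 500 nM it raised 34 of 40, where 22.6% of the 10996 genes tested were, and the median was 1.89. None fell in either comparison by edgeR or DESeq2, and 0 were lower at an unadjusted p under 0.05, where 29.8% and 18.3% of all genes fell. Corrected for GC content, 40 of 41 and 37 of 40 rose, where 15.2% and 13.3% of all genes did, PLSCR1 being lost in both. EPSTI1 went from 0 CPM to 22.7, 20.6 and 23.2 CPM at 50 nM and to 24.3, 14.8 and 11.1 CPM at 500 nM, at least 23.8-fold and 18.6-fold higher. OAS2 was at least 32.0-fold and 25.8-fold higher, ETV7 at least 8.12-fold and 7.38-fold, RTP4 at least 6.0-fold and 4.97-fold, and DDX60 at least 13.2-fold and 8.12-fold. IFITM2, BST2, TRIM25, LGALS3BP and TRAFD1 did not pass at either dose without the correction. LGALS3BP had a log2 fold change of -0.05 at 50 nM, and the correction turned it to a rise.

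ABBV-075 and ABBV-744 were compared at their shared dose of 50 nM, in 2 pairs of groups, with p-values adjusted over all genes within each pair. With IFNγ, 24 of 42 genes were lower with ABBV-075 and 3 were higher, where 17% and 16.7% of the 11126 genes tested were. The share that was higher lay below that of all genes. The median difference was -0.38 on the log2 scale, and 8 genes were lower past 1.5, where 1.13% of all genes were. TRIM22 had 4.47, 2.45 and 2.71 CPM with ABBV-075 and 34.7, 39.3 and 31.5 CPM with ABBV-744, a difference of -3.37 (SE 0.22, adjusted p = 1.99e-16, edgeR). EPSTI1 had 3.98, 5.44 and 3.92 CPM against 22.7, 20.6 and 23.2 CPM, a difference of -2.26 (SE 0.22, adjusted p = 3.67e-11, edgeR). DDX60 had 3.23, 2.18 and 3.62 CPM against 14, 11.3 and 11.6 CPM, a difference of -1.98 (SE 0.28, adjusted p = 2.26e-07, edgeR). The libraries of these genes did not overlap, where 25.5% of all genes tested lay lower without overlap. RTP4, OAS2, XAF1, CMPK2 and ETV7 differed by -1.78, -1.69, -1.69, -1.64 and -1.52. ETV7 passed the low-count filter through the ABBV-744 libraries alone and could be called only as lower with ABBV-075. HELZ2 was higher with ABBV-075, at 82, 82.9 and 88.6 CPM against 34, 27.7 and 33.4 CPM (1.46, SE 0.12, adjusted p = 9.83e-14, edgeR), as were IFI6 (0.6) and TRAFD1 (0.41). The difference did not pass in DDX58 (-0.11, 95% interval -0.38 to 0.15), SAMHD1 (-0.09, -0.25 to 0.07), SAMD9 (0.11, -0.44 to 0.67) or IFITM3 (-0.17, -0.53 to 0.19). In the corrected fit 24 were lower and 5 higher, where 18.1% and 16.2% of all genes were, and 21 and 3 were called in both fits.

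Without IFNγ, 9 of 27 genes were lower with ABBV-075 than with 50 nM ABBV-744 and 3 were higher, where 19.4% and 21.4% of the 10992 genes tested were. Here too the share that was higher lay below that of all genes. OAS1, at 3.14, 6.32 and 3.61 CPM against 12.5, 10.4 and 11.8 CPM, differed by -1.42. MX2, at 13, 12.9 and 10.5 CPM against 26.2, 27.3 and 29.5 CPM, differed by -1.19. Neither gene's groups overlapped, where 26.6% of all genes tested lay lower without overlap. BATF2 differed by -1.19, TGM2 by -0.77 and IFITM2 by -0.74. SAMHD1 had 159, 154 and 155 CPM against 85, 78.5 and 92.1 CPM. IFIT5, SAMHD1 and TDRD7 were higher by 0.91, 0.86 and 0.47. The corrected fit kept OAS1, ADAR, MX2, TRIM25 and SAMHD1, at -1.21, -0.31, -1.02, -0.4 and 0.83. BATF2, IFI35, IFITM2, LGALS3BP, TGM2, IFIT5 and TDRD7 were lost with it, EIF2AK2 and PLSCR1 were called lower, and HELZ2 and TRAFD1 higher, where 17.7% and 16.5% of all genes were. Leaving out ABBV-075 replicate 3 gave 16 calls, 12 lower and 4 higher, where 24.9% and 26.4% of all genes were called, and leaving out ABBV-075 replicate 1 or 2, or ABBV-744 replicate 2 or 3, gave 6 each, and ABBV-744 replicate 1 gave 7.

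The doses of ABBV-744 were compared in the presence of IFNγ. HELZ2 was higher at 500 nM (44.9, 42.4 and 51.1 CPM against 34, 27.7 and 33.4 CPM, 0.57, adjusted p = 0.0107, edgeR) and TRIM22 was lower (23.3, 23.1 and 24 CPM against 34.7, 39.3 and 31.5 CPM, -0.55, adjusted p = 0.0314, edgeR). These were the calls among 42 genes tested, where 1.41% of the 11022 genes tested were higher and 0.29% lower. Neither was called after the GC correction, at 0.33 and -0.48, where 0.817% of all genes were higher and 0.0998% lower. DESeq2 called 0 of the 13 genes for which it gave an adjusted p, and 2 were higher and 10 lower at an unadjusted p under 0.05 in edgeR. The count was 0 without replicate 2 at 50 nM or replicate 3 at 500 nM, 1 without replicate 1 at 50 nM or replicate 2 at 500 nM, and 4 without replicate 1 at 500 nM.

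Whether the effect of ABBV-075 differed with and without IFNγ was tested as an interaction over 4 groups. None of 43 genes was called by edgeR, where 0.0347% of the 11530 genes tested were, and DESeq2 called 0. Without ABBV-075 replicate 1, 1.71% of all genes were called, and without replicate 3, which stood apart, 0.111%. With so few calls over all genes, the lack of calls does not show that the effect was the same with and without IFNγ. At an unadjusted p under 0.05, 6 were positive and 8 negative. The lowest adjusted p was that of SAMHD1 (adjusted p = 0.425, edgeR), whose difference was -0.55. LGALS3BP was called with the GC correction, at -0.67, where 0.0694% of all genes were called lower, and also without ABBV-075 replicate 1, at -0.93. The same test for ABBV-744, added after the data were seen, called 23 of 42 genes at 50 nM, where 51.6% of the 11451 genes tested were called, and 17 of 42 at 500 nM, where 33.5% of 11428 were. Corrected for GC content it called 6 and 7, where 18.8% and 15.7% of all genes were called. These shares were near those of all genes.

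The promoter motifs were set beside the changes as a description. Of genes with an ISRE core, 19 were tested with IFNγ against DMSO, with a median log2 fold change of 2.31, genes at the floor entering at their bound. The median of the 14 with no ISRE core was 1.49. The 7 with both cores had a median of 3.16 and the 12 with neither 1.44. Of the genes with a window, DDX60, IFITM1, IFI27, EPSTI1 and RTP4 had at most 3 counts in every DMSO library. They passed the low-count filter through the IFNγ libraries alone and could enter only as rises. These genes hold an ISRE core, and all but RTP4 hold both cores. Further genes with slightly more DMSO counts entered in the same way. Among them were IFIH1, which holds an ISRE core only, and CMPK2, which holds neither core. The part of the filter in these medians was not tested. Under ABBV-075 with IFNγ, 14 of 20 genes with an ISRE core fell and 2 rose, against 7 and 3 of 14 without it, and the medians were -0.68 and -0.37. Under 50 nM ABBV-744 with IFNγ, 8 of 20 fell and 8 rose, against 6 and 5 of 14. The ranges overlapped in each case.

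Among 20 genes of IFNγ signalling, 17 were tested with IFNγ against DMSO and 7 rose, where 2.76% of all genes did, among them IRF1 (4.26), IRF9 (3.25), STAT2 (1.76), the feedback inhibitor SOCS1 (1.53), USP18 (0.71) and STAT3 (0.7). With ABBV-075 added to IFNγ, 6 of 17 rose and 5 fell, shares near the 28.2% and 28.4% of all genes. STAT2 and IRF9, which act together in the interferon response, fell by 1.36 and 0.82, the receptor chain IFNGR2 by 0.86, and USP18, which removes ISG15, by 1.45. IRF1 did not pass, at -0.04 (95% interval -0.23 to 0.15). With ABBV-744 at 50 and 500 nM the values of STAT2 were -0.71 and -0.82, and those of IRF9 -0.61 and -0.67, each called. These values are without the GC correction.

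Of the 49 genes, 43 were tested in at least 1 comparison and 27 in all 14. OASL, RSAD2, SAMD9L, IFI16, IFI44 and IFI44L were tested in none. Their highest level in any library was 1.98 CPM, in SAMD9L with IFNγ and 50 nM ABBV-744. With these few counts no difference between groups was detectable in them at this depth.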

How the data were processed

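RNA-seq of HepG2 was analysed in 24 libraries of 8 groups. Per the submitters' processing notes, the authors made reads with CASAVA 1.8.2, trimmed them with Trimmomatic 0.33 and aligned them to GRCh38 with STAR 2.7.1, and deposited raw counts per gene symbol for each library. The annotation used for counting is not given in the sources used here. The second-strand counts, which hold the reads of these directional libraries, were used, and reads of no gene were left out of library sizes (1 library is deposited per file, and 0 sample columns were left unused). The depth was 2978982 to 4304103 counts on genes per library, so counting error is large for genes of a few CPM.

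Counts were tested with edgeR 4.0.16 in R 4.3.3 (filterByExpr, TMM, quasi-likelihood F test) on the libraries of the groups compared, over all genes, with Benjamini-Hochberg adjustment and a threshold of 0.05. The standard error is the log2 fold change divided by the square root of F. Levels are CPM with TMM factors over 24 libraries. Where a group had at most 3 counts in every library, a fold is a lower bound against 3 counts per library. A gene is said to have risen or fallen only if it passed the test. The alternatives were DESeq2 1.42.0, other normalizations and filters, a fit to the 24 libraries together, a block for the replicate number, unstranded counts and leaving out each library. A GC correction (a lowess curve of each library on transcript GC content, GENCODE v44, entered as an offset) was added after the data were seen. Transcript GC content was found for 24545 of 26475 symbols (92.7%) and for at least 98.4% of genes tested.

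The genes and lists were chosen with earlier results of these data known. Values per library are given for the 8 highest rises with IFNγ with a mean level of 1 or more on the log2 CPM scale, the 5 lowest and 5 highest changes in each combination against IFNγ, and up to 5 each way in the other comparisons, among genes that passed. Other genes named beyond this rule were chosen after their values were seen. Scripts were tested on simulated data. Figures were drawn with matplotlib 3.10.9 in Python 3.11.15. The values of 1 gene of the signalling list and 1 of the marker list are not reported here.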

Additional observations from a re-analysis of the deposited data

Results flagged for a closer look

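Some antiviral genes gave a different effect of ABBV-744 with and without IFNγ, at shares near those of all genes. The difference was tested as an interaction over 4 groups with edgeR, a comparison added after the data were seen, and each value below is the log2 effect of the inhibitor with IFNγ minus that without it. At 50 nM, 23 of 42 genes tested were called (adjusted p of at most 0.05), where 51.6% of the 11451 genes tested were. It was more positive with IFNγ in 10 genes: SAMD9 (3.54), XAF1 (1.85), DDX58 (1.78), IFIT5 (1.33), NMI (1.28), IFIT1 (1.08), SP100 (1.05), EIF2AK2 (0.94), TDRD7 (0.64) and SAMHD1 (0.44). It was more negative in 13 genes: IFITM1 (-3.58), HELZ2 (-1.32), IFI6 (-1.27), LGALS3BP (-1.12), BST2 (-0.94), BATF2 (-0.92), IFITM3 (-0.83), IFITM2 (-0.65), TRAFD1 (-0.64), TGM2 (-0.6), TRIM25 (-0.54), ADAR (-0.46) and RNF213 (-0.41). Corrected for GC content, 6 genes were called, where 18.8% of all genes were, of which 5 were called also without it: HELZ2 (-0.74), LGALS3BP (-0.53), SAMHD1 (0.41), DDX58 (0.94) and XAF1 (1.34).

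At 500 nM, 17 of 42 genes were called, where 33.5% of the 11428 genes tested were. The 7 positive values were SAMD9 (3.33), XAF1 (2.14), NMI (1.55), DDX58 (1.47), IFIT1 (1.31), IFIT5 (0.92) and EIF2AK2 (0.87). The 10 negative values were IFITM1 (-4.18), IFI6 (-1.35), LGALS3BP (-0.84), IFITM2 (-0.81), TRAFD1 (-0.78), HELZ2 (-0.71), BATF2 (-0.69), TRIM25 (-0.55), ADAR (-0.44) and RNF213 (-0.41). Corrected for GC content, 7 genes were called, where 15.7% of all genes were, of which 6 were called also without it: IFITM1 (-3.81), IFI6 (-0.96), LGALS3BP (-0.49), TRAFD1 (-0.46), DDX58 (0.83) and XAF1 (1.78). IFITM1 and SAMD9 had at most 3 counts in some groups, so their fitted differences depend on the prior count. The part of the GC trend in the remaining calls was not tested.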

How the results depend on the processing

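Counts of antiviral genes called stayed within 1.5 times of the reported value under every alternative in 7 of 14 comparisons, and in 8 where leaving out libraries is set aside. For the genes the naming rule gave in each comparison, no called value changed direction: 1244 of their values under the alternatives stayed on the same side of the threshold and 93 did not pass. Among all antiviral genes, the GC correction turned the sign of 12 values that were called in at least 1 of the fits, 11 of them also with the replicate block, among them NMI under 50 nM ABBV-744 with IFNγ (called at 0.47 and at -0.33). For IFNγ with ABBV-075 against ABBV-075 (23 called), 35 were called with no low-count filter, 35 with all 24 libraries in the fit and 13 with at least 10 counts in every library. That filter gave 22 for IFNγ with ABBV-744 against ABBV-744, at 50 nM (35 called) and at 500 nM (34 called). It tests fewer genes, leaving out those near 0 without IFNγ. For ABBV-075 against 50 nM ABBV-744 (12 called), all 24 libraries gave 20 and DESeq2 gave 7. For the 2 doses of ABBV-744 with IFNγ (2 called), scaling by library size gave 4, and all 24 libraries, DESeq2, the GC correction and the GC correction with the replicate block each gave 0. For the interaction of ABBV-075 and IFNγ (0 called), the GC correction with and without the block gave 1. The causes of these moves were not tested.

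Leaving out 1 library at a time gave 39 to 41 calls for IFNγ against DMSO, 30 to 33 for ABBV-075 with IFNγ against IFNγ, 31 to 33 and 25 to 31 for 50 and 500 nM ABBV-744 with IFNγ, 8 to 18 for ABBV-075 alone, 2 to 6 for 500 nM ABBV-744 alone (2 without DMSO replicate 2 or ABBV-744 replicate 3), 6 to 16 for ABBV-075 against ABBV-744, 0 to 4 for the 2 doses and 0 to 1 for the interaction. Scaling by library size moved the median log2 fold change of all genes by over 0.1 in 2 comparisons, to -0.103 for 50 nM ABBV-744 against DMSO and to -0.116 for ABBV-075 against 50 nM ABBV-744 with IFNγ, where 31 were then called, 28 lower and 3 higher.

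With the replicate number as a block, 41 genes were called for IFNγ, 36, 31 and 29 for ABBV-075 and for 50 and 500 nM ABBV-744 with IFNγ against IFNγ, 13, 3 and 3 for the same inhibitors against DMSO, 29, 35 and 34 for IFNγ within each inhibitor, 28 and 11 for ABBV-075 against ABBV-744 with and without IFNγ, 3 for the doses and 0 for the interaction. Correlations of same-numbered libraries were -0.18 to 0.34, so the numbers were not taken as pairs, and in no comparison did all 3 libraries correlate best with their own number. Genes under a few CPM are limited by depth: a library of 3462418.5 counts, the median, gives less than 1 count to a gene at the lowest levels shown.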
